A study of Mus musculus with 6 samples.

Results

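Peaks of open chromatin at 10 imprinted genes, Peg3, Mest, Dlk1, Meg3, Plagl1, Grb10, Peg10, Sgce, Ndn and H19, were compared in mouse muscle stem cells (MuSCs) with and without Taf4a. A peak counted as belonging to a gene if the deposited peak table named that gene, or if it carried no gene and lay within the gene body. By this rule 27 of the 75412 peaks were found, at 9 of the 10 genes: 10 carried the gene symbol, 14 carried no gene and lay in a gene body, and 3 peaks of H19 were matched by gene identifier because their symbol cell was blank. Meg3 had no such peak. Another 7 peaks lay inside the bodies of Mest, Meg3 and Plagl1 but were listed under other gene identifiers, mostly of small non-coding RNA genes. They were chosen after their values had been seen, fall outside the rule, and are described separately.

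The study deleted Taf4a, which encodes a subunit of the general transcription factor TFIID, in MuSCs and measured accessible DNA by ATAC-seq, in which the Tn5 transposase cuts open chromatin and adds sequencing adapters. Control and Taf4a sKO each had 3 biological replicates of freshly isolated MuSCs from C57BL/6 mice. Taf4a sKO mice carried the tamoxifen-inducible Pax7CreERT driver and floxed Taf4a alleles (exons 11 and 12), so that only cells that express Pax7 recombine. Control mice were, by the study's methods, littermates with floxed Taf4a in which deletion was not induced. According to the study's methods the animals were adults of both sexes. The values are read counts per peak that the authors normalized for sequencing depth and rounded. They summed to between 35226223 and 42803315 in the control libraries and between 41661725 and 44311913 in the Taf4a sKO libraries. At the rule's 27 peaks a value in one library rested on 9 to 4831 reads, so the weakest peaks are the least precise. As a check of the labels, the peak over exon 12 of Taf4 (mm10, chr2:179922849-179923263) held 65, 78 and 137 normalized reads in control and 44, 22 and 25 in Taf4a sKO libraries. It fell by 1.58 on the log2 scale (SE 0.30, limma adjusted p = 0.000336).

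Imprinted genes are transcribed mainly from 1 of the parental copies, and DNA methylation laid down in the egg or sperm marks the parental copies apart. Peg3, Mest, Dlk1, Plagl1, Peg10, Sgce and Ndn are expressed from the paternal copy, Meg3 and H19 are long non-coding RNAs of the maternal copy, and Grb10 is expressed from the maternal copy in most tissues. ZFP57 keeps the methylation by binding the methylated hexamer TGCCGC, and CTCF binds the unmethylated maternal copy upstream of H19. Several of these genes act on growth and on stem cell quiescence. ATAC-seq of inbred mice sums both parental copies and all cells of a library, so a change on 1 copy, a change on both and a change in the mix of cells cannot be told apart here. Methylation was not measured.

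The sequences below show the motifs that the peaks hold, on the strand of the gene, in mm10 (GRCm38, RefSeq sequence). In the first pair, upstream of H19, capitals mark a match to the CTCF core motif, 14 bases of which the sixth and the ninth are free. In the next 3, at start sites of Mest, Peg3 and Plagl1, capitals mark TGCCGC on either strand. In the last pair capitals mark CpG dinucleotides. The first of that pair is the internal start region of Grb10, and the second is the distal Mest peak with the largest fall among the 27 peaks.
H19 chr7:142580265-142580414 (minus strand): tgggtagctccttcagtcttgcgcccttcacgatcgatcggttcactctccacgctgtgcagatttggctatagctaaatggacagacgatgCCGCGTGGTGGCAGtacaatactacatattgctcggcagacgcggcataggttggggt
H19 chr7:142581912-142582061 (minus strand): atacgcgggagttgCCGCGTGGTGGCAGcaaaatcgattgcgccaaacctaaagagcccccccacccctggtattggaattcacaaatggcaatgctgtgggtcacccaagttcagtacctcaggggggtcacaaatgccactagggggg
Mest chr6:30737603-30737752 (plus strand): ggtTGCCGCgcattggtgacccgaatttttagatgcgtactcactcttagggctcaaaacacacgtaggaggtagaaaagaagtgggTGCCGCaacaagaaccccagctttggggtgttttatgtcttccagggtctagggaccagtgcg
Peg3 chr7:6730057-6730206 (minus strand): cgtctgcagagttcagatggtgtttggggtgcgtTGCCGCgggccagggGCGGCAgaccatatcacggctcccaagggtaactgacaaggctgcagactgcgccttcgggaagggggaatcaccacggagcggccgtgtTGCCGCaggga
Plagl1 chr10:13091069-13091218 (plus strand): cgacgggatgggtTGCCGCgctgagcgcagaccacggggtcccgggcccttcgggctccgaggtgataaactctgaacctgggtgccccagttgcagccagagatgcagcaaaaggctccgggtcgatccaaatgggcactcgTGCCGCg
Grb10 chr11:12026350-12026499 (minus strand): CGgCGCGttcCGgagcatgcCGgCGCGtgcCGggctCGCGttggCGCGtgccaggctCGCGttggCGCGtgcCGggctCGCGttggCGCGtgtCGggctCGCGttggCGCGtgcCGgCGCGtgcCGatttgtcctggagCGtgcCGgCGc
Mest chr6:30714004-30714153 (plus strand): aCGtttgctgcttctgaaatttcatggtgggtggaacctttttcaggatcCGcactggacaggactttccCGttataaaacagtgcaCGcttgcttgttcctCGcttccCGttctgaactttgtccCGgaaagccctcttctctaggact

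Of the 27 peaks, 7 rose and 4 fell in Taf4a sKO MuSCs by limma with an adjusted p below 0.05, and 16 did not pass. The number of rises depended on single libraries: it was 2 without the first Taf4a sKO library, 3 without the third Taf4a sKO, the first control or the second control library, 9 without the third control library, and 3 with quantile normalization. Over all 75384 peaks tested, 28.0% were higher and 13.9% lower, so the members were called about as often as peaks at large. The peaks that rose belonged to Peg10 (2), Grb10 (2), Sgce, Plagl1 and Dlk1. Those that fell belonged to Grb10 (2), Mest and Dlk1. The median log2 change of the 27 peaks was 0.14, against 0.11 for all peaks, and single changes ran from -1.23 at Mest to 0.73 at Grb10. All 3 Taf4a sKO libraries lay above all 3 control libraries at 7 of the 27 peaks and below them at 5, against 32.3% and 18.0% of all peaks. The authors' fold threshold, a log2 ratio of group means beyond 1, was passed by no member upwards and by 1 downwards, the distal peak of Mest. For this ratio 1 was added to each group mean. Of all peaks 7.03% passed it upwards and 5.36% downwards.

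The scaling between libraries bears on these small changes. As deposited, all peaks together had a median log2 change of 0.11, and TMM factors, which centre the bulk of peaks, brought it to -0.01. Rises of about this size or smaller therefore changed sign between scalings at some members.

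**Figure D1:**
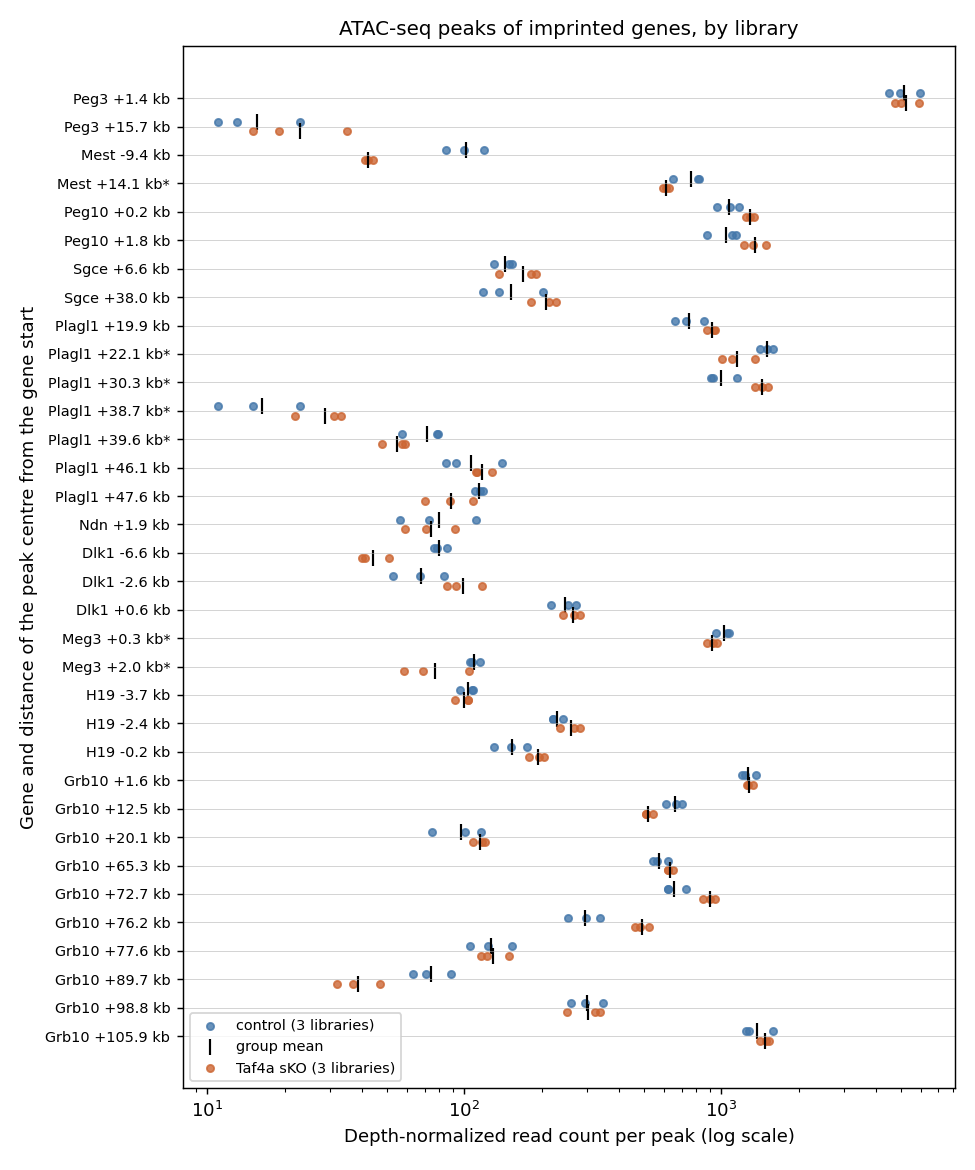
Depth-normalized read count per peak (log scale) in each library, for the 27 peaks found by the rule and the 7 peaks listed under other gene identifiers (asterisk), named by gene and distance of the peak centre from the gene start. Points are the 3 control and the 3 Taf4a sKO libraries and ticks are group means; the Peg3 start region, at 4506 to 5951, is the strongest peak, and at the Mest peak 9.4 kb upstream the 3 Taf4a sKO libraries (41 to 44) lie below the 3 control libraries (85 to 119).

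Of the paternally expressed genes, Peg3, a zinc finger protein gene, had the strongest peak of all members in normalized reads, and it did not pass the test. Divided by peak length it was not the strongest: in control an intronic Plagl1 peak held 1999 normalized reads per kb against 1608. The Peg3 peak (chr7:6727457-6730655) covers 3 annotated Peg3 start sites and held 4978, 4506 and 5951 normalized reads in control and 5899, 5001 and 4758 in Taf4a sKO libraries. The genotypes overlapped fully. The log2 change was 0.02 (95% interval -0.21 to 0.26, limma adjusted p = 0.884) and took the opposite sign with TMM factors, at -0.09. An intronic peak 15.7 kb into the gene (chr7:6714638-6714878) was close to the detection limit, with 13, 23 and 11 against 35, 15 and 19 normalized reads, and did not pass (log2 change 0.50, SE 0.40, adjusted p = 0.335).

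Mest, which encodes a hydrolase-like protein, had the largest fall among the members. Its only peak by the rule (chr6:30714004-30714377) lies 9.4 kb upstream of the gene start of the deposited annotation. It held 119, 85 and 100 normalized reads in control and 42, 44 and 41 in Taf4a sKO libraries. Each Taf4a sKO library was thus below each control library, and the mean fell to 0.418 of the control mean. The log2 change was -1.23 (SE 0.21, limma adjusted p = 7.02e-05), and it kept its call under each of the 13 alternative settings. The peak over the Mest start sites (chr6:30736828-30738441), which covers 3 annotated Mest starts but is listed under Gm27568, held 810, 646 and 822 against 608, 593 and 627 normalized reads. All Taf4a sKO libraries were lower, and it fell by 0.31 on the log2 scale (SE 0.12, adjusted p = 0.0446). That call was lost when any 1 library other than the second control library was left out (adjusted p up to 0.180), whereas with TMM factors the change was -0.42 (adjusted p = 0.00138).

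Peg10 and Sgce are neighbours that start head to head and share 1 promoter peak. Peg10 derives from a retrotransposon, and Sgce encodes epsilon-sarcoglycan of the dystrophin-associated complex. The shared peak (chr6:4746723-4748329), listed under Peg10, spans the start of both genes and held 1077, 959 and 1171 normalized reads in control and 1341, 1296 and 1243 in Taf4a sKO libraries. All 3 Taf4a sKO libraries were higher. It rose by 0.28 on the log2 scale (SE 0.11, adjusted p = 0.0410; 0.17 with TMM factors, adjusted p = 0.0329), a call lost with quantile normalization and when any 1 library other than the third control library was left out (adjusted p up to 0.141). The second Peg10 peak, in an intron 1.8 kb from the start (chr6:4748735-4749469), held 1098, 881 and 1139 against 1490, 1225 and 1328. Here too the genotypes did not overlap, with a log2 change of 0.38 (SE 0.12, adjusted p = 0.0116) that missed the threshold without the first Taf4a sKO or the second control library (adjusted p up to 0.0812).

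Within the Sgce body, 38.0 kb from its start and over an annotated exon, a peak (chr6:4708997-4709369) held 118, 137 and 202 against 228, 181 and 213 normalized reads. The third control library lay inside the Taf4a sKO range. The log2 change of 0.47 (SE 0.18) passed the test with an adjusted p of 0.0431 but not with TMM factors (0.36, adjusted p = 0.0763) nor without 4 of the 6 libraries in turn (the first and second control and the first and the third Taf4a sKO library, adjusted p up to 0.199). The intronic Sgce peak 6.6 kb from the start (chr6:4740364-4740909) did not pass, with 153, 130 and 149 against 182, 137 and 190 (log2 change 0.22, adjusted p = 0.306).

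Plagl1, which encodes a zinc finger transcription factor, showed rising and falling peaks within about 10 kb of each other. By the rule it had 3 peaks, none with a gene name. The first, in an intron 19.9 kb from the gene start (chr10:13080077-13080657), held 731, 658 and 854 normalized reads in control and 941, 881 and 934 in Taf4a sKO libraries. The groups did not overlap, and it rose by 0.30 on the log2 scale (SE 0.12, adjusted p = 0.0398). With quantile normalization the change was 0.09 and the call was lost, as it was when any 1 library other than the third control library was left out (adjusted p up to 0.156). The peaks 46.1 and 47.6 kb from the start (chr10:13106314-13106823 and chr10:13107914-13108286) did not pass, with log2 changes of 0.17 and -0.38. In the latter all Taf4a sKO libraries were below the control libraries (110, 118 and 115 against 108, 88 and 70), and with TMM factors its change of -0.50 passed (adjusted p = 0.0349).

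A further 4 peaks inside Plagl1 are listed under Gm27741. The one that covers 8 annotated Plagl1 start sites (chr10:13090290-13091263) held 931, 909 and 1146 against 1513, 1444 and 1352 normalized reads. Every Taf4a sKO library was above every control library, and the log2 change was 0.54 (SE 0.11, adjusted p = 0.000500), which held under all 13 alternatives. Some 8 kb upstream of it, an intronic peak (chr10:13082271-13083021) went the other way, from 1591, 1413 and 1500 to 1347, 1007 and 1102. It fell by 0.39 on the log2 scale (SE 0.11, adjusted p = 0.00798), a call lost without the second Taf4a sKO library (adjusted p = 0.0856). The log2 ratio of the start-site peak to this upstream peak, which does not depend on the scaling between libraries, was -0.60 ± 0.19 in the 3 control and 0.33 ± 0.18 in the 3 Taf4a sKO libraries (mean ± SD), with no overlap. The ratio is of values not divided by peak length, so only its difference between the genotypes can be read. This pair and the 3 pairs given below for Dlk1 and Grb10 were picked after their values had been seen and are described without a test. The remaining Gm27741 peaks, at 38.7 and 39.6 kb, did not pass (log2 changes 0.81 and -0.37).

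Ndn, which encodes the MAGE family protein necdin, had 1 peak over its single exon (chr7:62348165-62348708). It held 111, 56 and 73 normalized reads in control and 92, 71 and 59 in Taf4a sKO libraries, with full overlap. The log2 change was -0.08 (95% interval -0.58 to 0.43, adjusted p = 0.824), an interval too wide to say that the genotypes were alike.

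Dlk1 and Meg3 lie in the same imprinted domain on chromosome 12. Dlk1 encodes a transmembrane protein related to Notch ligands. Its start-site peak (chr12:109452964-109453855) did not pass, with 217, 271 and 253 normalized reads in control and 268, 243 and 283 in Taf4a sKO libraries, and its log2 change of 0.10 (adjusted p = 0.610) became -0.01 with TMM factors. Both upstream peaks changed, in opposite directions. The peak 6.6 kb upstream (chr12:109446075-109446273) went from 76, 86 and 78 to 51, 40 and 41, with no overlap. It fell by 0.85 on the log2 scale (SE 0.22, adjusted p = 0.00295), a call kept under all 13 alternatives. The peak 2.6 kb upstream (chr12:109449988-109450525) went from 53, 83 and 67 to 117, 86 and 93. Its groups were separated by only 3 normalized reads, its log2 change was 0.55 (SE 0.21, adjusted p = 0.0398), and the call was lost with TMM factors (0.44, adjusted p = 0.0975) and without the first control, the first Taf4a sKO or the third Taf4a sKO library (adjusted p up to 0.189). The log2 ratio of the nearer to the farther peak was -0.26 ± 0.23 in the 3 control and 1.14 ± 0.05 in the 3 Taf4a sKO libraries (mean ± SD).

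The Meg3 start-site peak (chr12:109540374-109542216) covers 4 annotated Meg3 starts and is listed under Gm27596. It held 1056, 952 and 1073 against 931, 959 and 877 normalized reads, with 1 Taf4a sKO library inside the control range. With the authors' scaling the log2 change of -0.15 (SE 0.11) had an adjusted p of 0.269, and with TMM factors the change of -0.27 passed (adjusted p = 0.00729). A smaller peak over a Meg3 exon 2.0 kb from the start (chr12:109542933-109543145), listed under Gm27300, went from 115, 107 and 105 to 104, 69 and 58. All Taf4a sKO libraries were lower, the first by only 1 normalized read, and it fell by 0.54 (SE 0.21, adjusted p = 0.0418). The call was lost without the first or second control or the second or the third Taf4a sKO library (adjusted p up to 0.242).

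The stretch from the Dlk1 start to the Dio3 end was looked at as a whole after values of single peaks had been seen. It held 41 peaks, of which 7 rose and 11 fell, with a median log2 change of -0.11, where 28.0% of all peaks rose, 13.9% fell and the median was 0.11. From the Dlk1 start to the end of Mirg, the part that holds the maternally expressed non-coding RNAs, 4 of 16 peaks rose and 3 fell. Between Mirg and Dio3, 3 of 25 rose and 8 fell, with a median of -0.31. These counts are for the authors' scaling and are to be read beside the shares given for it. With TMM factors 25.4% of all peaks rose and 22.3% fell. The stretch was not counted with that scaling, so its counts cannot be set against these shares. The peaks listed under Mir493 and Mir337, close to the end of Meg3, rose by 1.17 and 0.94 (adjusted p = 0.000799 and 0.00415). The largest change of the stretch was at an intergenic peak 497 kb from the Dlk1 start (chr12:109949407-109950096), which fell by 2.30 on the log2 scale, from 251, 210 and 235 to 37, 45 and 59 normalized reads. A pair of peaks listed under Gm27528 lies between Dlk1 and Meg3, the interval that contains the control region of the domain. They held 75, 50 and 60 against 61, 66 and 74 (chr12:109528190-109528630) and 83, 59 and 74 against 61, 53 and 53 (chr12:109530269-109530619), and neither passed (adjusted p = 0.665 and 0.203).

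**Figure D2:**
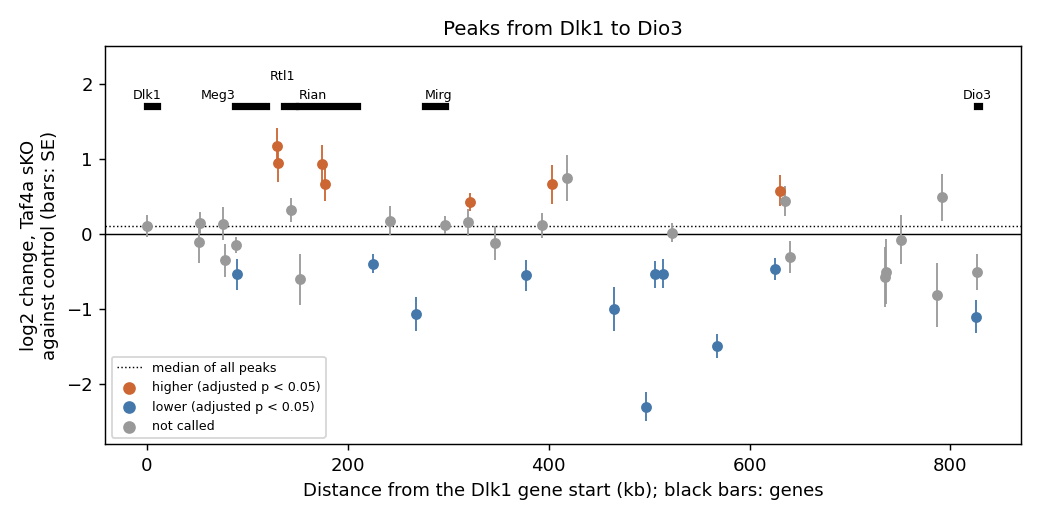
The log2 change of each of the 41 peaks from the Dlk1 start to Dio3 (vertical axis; points are limma estimates, bars SE) by distance from the Dlk1 gene start in kb; black bars are genes and the dotted line is the median of all peaks. The 4 peaks that rose before the end of Mirg lie between the end of Meg3 and the end of Rian, and 8 of the 11 that fell lie beyond Mirg.

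H19, a maternally expressed long non-coding RNA, had 3 peaks upstream of its start and none passed the test. The nearest, 0.2 kb upstream (chr7:142578146-142578546), held 131, 152 and 176 normalized reads in control and 179, 196 and 205 in Taf4a sKO libraries. Although the groups did not overlap, the log2 change of 0.34 (SE 0.16) had an adjusted p of 0.0908. The peak 2.4 kb upstream (chr7:142580265-142580826) held 222, 221 and 243 against 235, 281 and 266 (log2 change 0.19, adjusted p = 0.323). That 3.7 kb upstream (chr7:142581709-142582061) held 96, 107 and 108 against 92, 103 and 103 (log2 change -0.06, 95% interval -0.43 to 0.31, adjusted p = 0.812).

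Both far peaks of H19 hold the CTCF core motif shown above. The letters searched are the strict form known from the CTCF sites of this region, so their presence here is not a finding, and their rarity elsewhere does not mean that other peaks lack CTCF sites. The motif, on either strand, occurred in 34 of the 75412 peaks (0.0451%), and in 2 of the 27 peaks of the imprinted genes. The peak 2.4 kb upstream held 2 matches, CCGCGTGGTGGCAG at chr7:142580309-142580322 and CCGCGCGGTGGCAG at chr7:142580764-142580777, and was the only peak of the table with more than 1. Of the 15833 peaks within 20% of its length, 0.0253% held a match. One more match, CCGCGTGGTGGCAG at chr7:142582034-142582047, lay in the peak 3.7 kb upstream. All 3 were on the minus strand, the strand of H19.

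Grb10, which encodes an adaptor that restrains insulin receptor signalling, had 10 peaks, more than any other member. Of these 2 rose, 2 fell and 6 did not pass, beside 28.0% higher and 13.9% lower among all peaks. The peak at its upstream start (chr11:12036108-12038014) did not pass, with 1209, 1231 and 1369 normalized reads in control and 1264, 1324 and 1272 in Taf4a sKO libraries (log2 change 0.02, 95% interval -0.19 to 0.23, adjusted p = 0.890; -0.09 with TMM factors). The internal CpG-rich peak 12.5 kb downstream (chr11:12025543-12026749), which covers 2 annotated starts, held 664, 608 and 706 against 508, 544 and 508. All Taf4a sKO libraries were lower. It fell by 0.34 on the log2 scale (SE 0.12, adjusted p = 0.0252; -0.45 with TMM factors, adjusted p = 0.000754), and the call was lost without the first control, the first Taf4a sKO or the third Taf4a sKO library (adjusted p up to 0.107). The log2 ratio of the internal to the upstream start peak was -0.94 ± 0.08 in the 3 control and -1.31 ± 0.02 in the 3 Taf4a sKO libraries (mean ± SD), with no overlap.

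Farther into the gene, in introns, both peaks that rose lay next to each other. The peak 72.7 kb from the start (chr11:11965598-11966381) went from 620, 620 and 732 to 948, 906 and 852, a log2 change of 0.46 (SE 0.12, adjusted p = 0.00256). The peak at 76.2 kb (chr11:11962101-11962905) went from 254, 298 and 336 to 484, 463 and 524, a log2 change of 0.73 (SE 0.14, adjusted p = 0.000169) and the largest rise of the 27 peaks. At both, every Taf4a sKO library was above every control library. A weaker intronic peak at 89.7 kb (chr11:11948758-11949212) went from 89, 71 and 63 to 37, 47 and 32 and fell by 0.93 (SE 0.24, adjusted p = 0.00312). These 3 calls held under all 13 alternatives. The log2 ratio of the 76.2 kb to the 89.7 kb peak was 1.98 ± 0.45 in the 3 control and 3.65 ± 0.36 in the 3 Taf4a sKO libraries (mean ± SD). The other 5 Grb10 peaks had log2 changes between 0.02 and 0.26 and did not pass, and 3 of them changed sign with TMM factors.

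**Figure D3:**
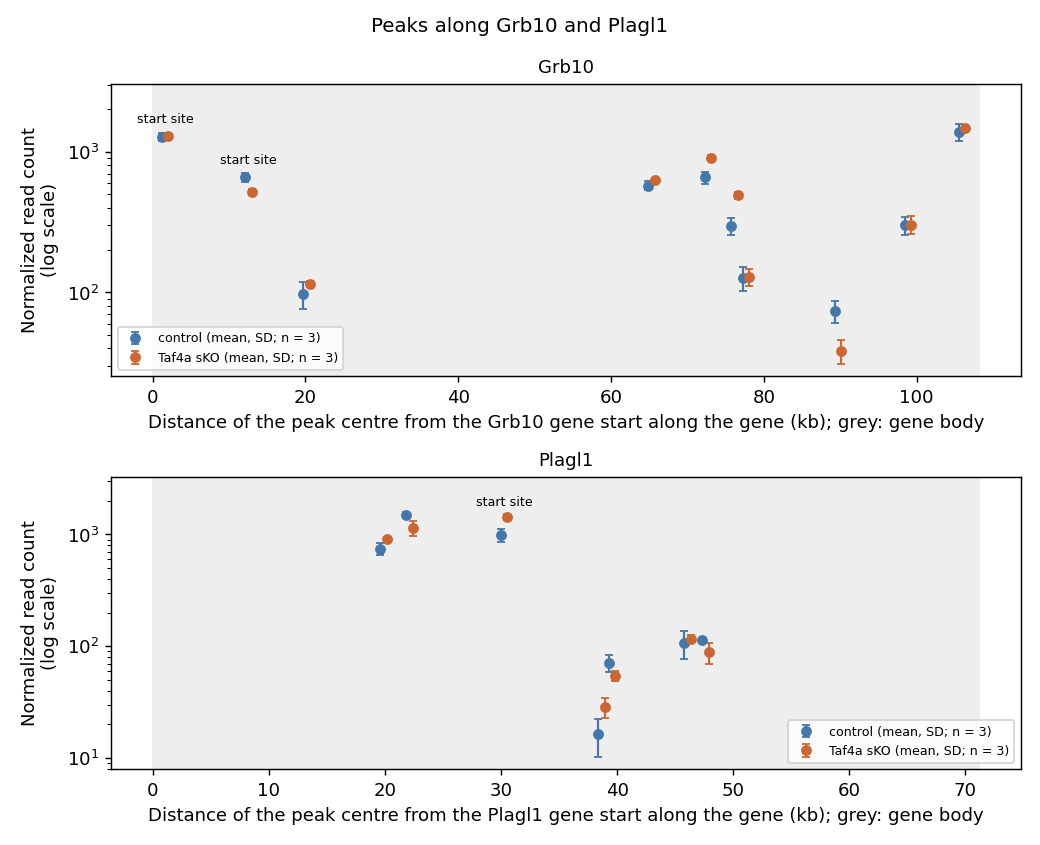
Normalized read count (log scale; mean and SD of 3 libraries) of the peaks along Grb10 and Plagl1 by distance of the peak centre from the gene start in kb, with control and Taf4a sKO points set slightly apart; the grey band is the gene body and peaks over annotated starts are marked. In Grb10 the internal start peak is lower and the peaks at 72.7 and 76.2 kb are higher in Taf4a sKO, and in Plagl1 the marked start peak is higher while the peak at 22.1 kb is lower.

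**Figure D4:**
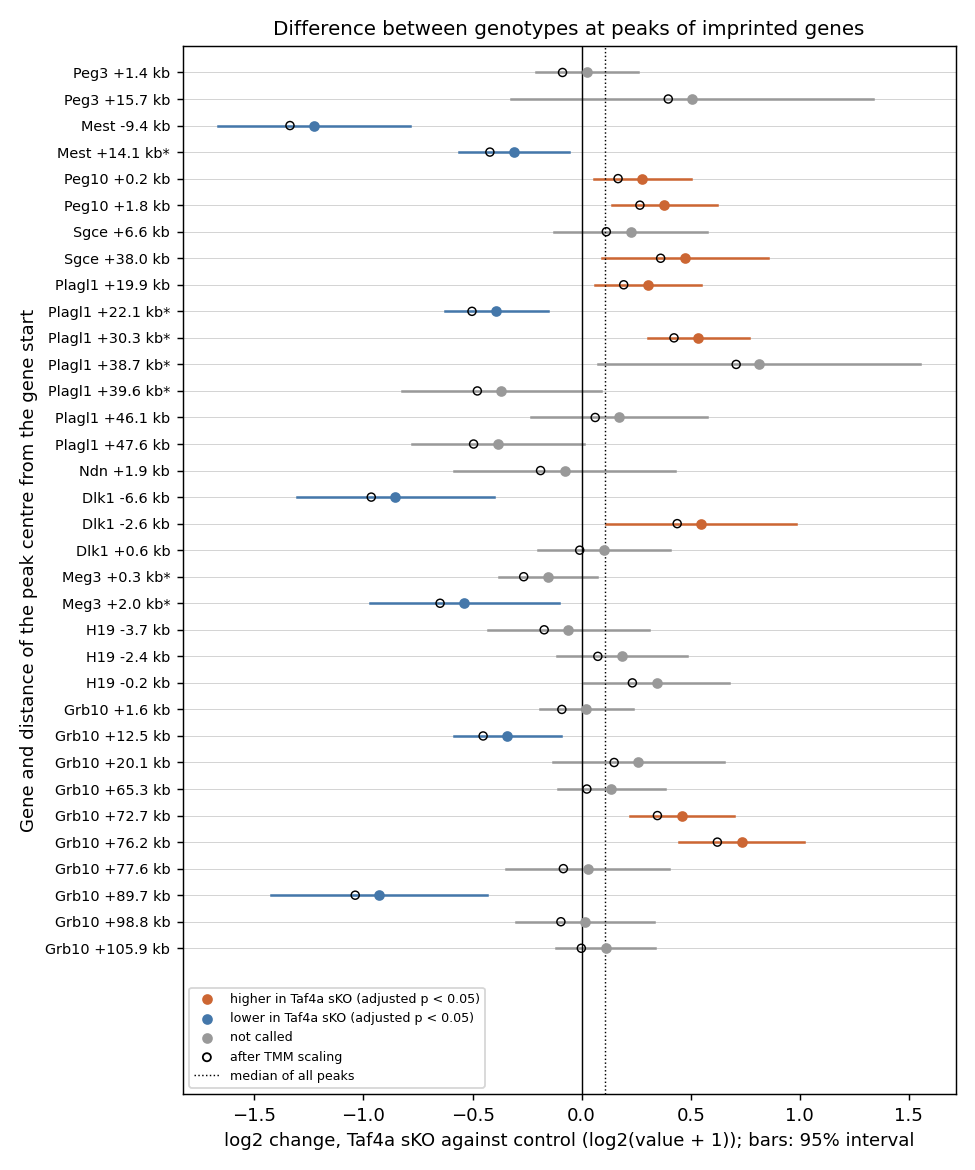
The log2 change between Taf4a sKO and control for each peak of the 10 genes (horizontal axis; points are limma estimates, bars 95% intervals, open circles the estimates after TMM scaling), with peaks listed under other gene identifiers marked by an asterisk. The dotted line is the median of all peaks, 0.11; calls in both directions stand side by side within Grb10, Plagl1 and Dlk1.

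Summed over the peaks of each gene, 2 of the 9 genes rose and 1 fell, against 22.2% and 10.7% of the 21397 genes fitted. Peg10 summed to 2175, 1840 and 2310 in control and 2831, 2521 and 2571 in Taf4a sKO libraries, a log2 change of 0.33 (SE 0.10, adjusted p = 0.00447) that TMM factors reduced to 0.22 (adjusted p = 0.00290). Sgce summed to 271, 267 and 351 against 410, 318 and 403, and its log2 change of 0.35 (adjusted p = 0.0325) became 0.24 with TMM factors and no longer passed (adjusted p = 0.0986). The 1 gene that fell was Mest, which rests on its distal peak alone. Plagl1 (0.22, adjusted p = 0.0727), H19 (0.19), Grb10 (0.12), Dlk1 (0.05), Peg3 (0.03) and Ndn (-0.08) did not pass. For Dlk1 and Grb10 the sum hides calls in both directions. The Plagl1 sum leaves out the peaks listed under Gm27741, among them the start-site peak, which rose, and an intronic peak that fell. The Sgce sum leaves out the start peak shared with Peg10, which is counted under Peg10. Without the first Taf4a sKO library none of the 9 genes rose, and without the third control library 5 did.

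Compared per length, the start-site peaks of the members ranged widely in control MuSCs. H19 and Ndn had no peak over an annotated start, and their peaks nearest to it are given instead. Levels are given in normalized reads per kb as mean ± SD (n = 3 control libraries). Peg3 was highest at 1608 ± 230, followed by the Plagl1 start peak at 1022 ± 134. The upstream start of Grb10 (666 ± 45.5) and the shared Peg10 and Sgce start (665 ± 66.1) overlapped. The internal start of Grb10 (546 ± 40.7) overlapped both Meg3 (557 ± 35.5) and Mest (470 ± 60.9), which did not overlap each other. H19 was at 382 ± 56.2, and its range overlapped that of Mest. Dlk1 (277 ± 30.8) and Ndn (147 ± 51.8) were lowest, and neither overlapped its neighbours in the order. In Taf4a sKO MuSCs the ends of the order stayed as they were, with Peg3 at 1632 ± 188 and Ndn at 136 ± 30.7. The Plagl1 start, at 1475 ± 82.9, overlapped Peg3, which it had not in control. H19 (482 ± 32.9) lay above Mest (378 ± 10.6) without overlap. The H19 range overlapped those of Meg3 (500 ± 22.6) and of the internal start of Grb10 (431 ± 17.2).

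All 8 peaks that cover a start site of a member held TGCCGC on at least 1 strand, whereas 17.5% of all peaks did. These peaks were long, and a longer peak has more room for a hexamer. Among peaks within 20% of its length, 52.8% held the hexamer in the case of Mest, and 0.0163% held at least as many matches as its 11. For Plagl1, with 6 matches, the figures were 26.0% and 0.0434%. The Peg3 peak held 8 matches (84.6% and 1.92%), and the upstream and internal starts of Grb10 held 5 and 4 (at least as many in 3.58% and 1.54% of peaks of like length). The other starts were ordinary for their length: Peg10 held 2, Dlk1 1 and Meg3 1, and 24.9%, 22.1% and 58.8% of peaks of like length held at least as many. The H19 peaks 3.7 and 2.4 kb upstream held 3 and 2 (0.0657% and 1.17%). In each H19 sequence shown above a TGCCGC overlaps the CTCF match, so these figures in part recount that motif. Start-site peaks were also rich in CpG, with a median of 75.2 CpG per kb against 15.9 for all peaks, and the starts of Grb10 reached 112 and 113 per kb. TGCCGC itself contains a CpG, and the peaks of like length were not matched for CpG content. Of these 8 peaks, 2 rose (Peg10 and Plagl1), 2 fell (Mest and the internal start of Grb10) and 4 did not pass, beside 28.0% higher and 13.9% lower among all peaks, at CpG contents that overlapped.

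**Figure D5:**
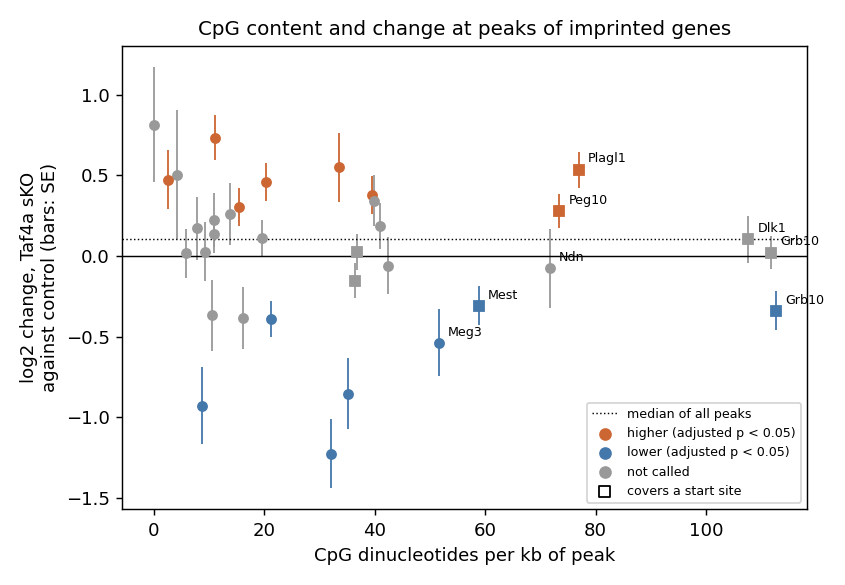
The log2 change between Taf4a sKO and control (points; bars SE) by the number of CpG dinucleotides per kb of peak, for the 27 peaks found by the rule and the 7 listed under other identifiers. Squares cover a start site of a member, and peaks above 50 CpG per kb are named; both higher and lower peaks occur among the CpG-rich ones.

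The other imprinted genes came from a list of 58 genes that also holds their neighbours in imprinted clusters. Whether each is imprinted in MuSCs was not tested. The list had 97 peaks at 50 genes. Of these peaks 26 rose and 6 fell, against 28.0% and 13.9% of all peaks, and the median log2 change was 0.17. With TMM factors 23 rose and 14 fell, against 25.4% and 22.3% of all peaks. Without the second control library 17 rose, and without the third control library 46 did. The largest rise was at Cdh15, the cell adhesion gene M-cadherin, at a peak 5.5 kb from its start (chr8:122853356-122853672), from 253, 226 and 244 to 776, 745 and 737 normalized reads (log2 change 1.64, SE 0.13, adjusted p = 2.48e-09). It was followed by both nearest peaks of Dcn, which encodes the matrix protein decorin (1.32 and 0.84), a peak of Ddc, next to Grb10 (1.12), and a peak of Herc3 (0.79). The largest falls were at Dio3, which encodes a deiodinase at the far end of the Dlk1 domain (-1.10, adjusted p = 0.000759), Calcr, the calcitonin receptor (-1.01), Tssc4 (-0.87), Nespas (-0.59) and Cobl (-0.57). These are values of single peaks. Among the falls, the peak nearest the gene start did not pass at Dio3, Calcr, Tssc4 and Cobl. With TMM factors that of Dio3 passed as lower (-0.62, adjusted p = 0.0365). Among the rises, the peak nearest the start did not pass at Cdh15 (0.23, adjusted p = 0.113) and Herc3 (0.17, adjusted p = 0.192). The Calcr peak that fell lies 6528 bp from the start and held 68, 59 and 68 against 40, 32 and 25 normalized reads, whereas the stronger peak at the start held 1403, 1183 and 1420 against 1524, 1583 and 1597 (log2 change 0.24, adjusted p = 0.0764). Herc3 also had a peak that fell (-0.41, adjusted p = 0.0251). Genes for factors that maintain imprints had 6 peaks at 5 of 9 listed genes, Arid4a, Ctcf, Smchd1, Zfp445 and Zfp57. None passed by limma, none had an unadjusted p below 0.05, and their log2 changes lay between -0.16 and 0.20.

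The cell type of the libraries was checked on marker genes, whose calls are to be read beside 28.0% higher and 13.9% lower among all peaks. By the study's methods, cells carrying Sca1 (the product of Ly6a) or the surface antigens of blood and endothelial cells were depleted, and MuSCs were then sorted by an integrin or by the Pax7:ZsGreen reporter. By the study's own check the sorted cells were not fully pure. All 10 MuSC markers had peaks, and their summed values were 31198, 26596 and 32302 in control and 34955, 31969 and 32789 in Taf4a sKO libraries, with 14 of 36 peaks higher and 3 lower and Pax7 most abundant. Of the markers of other cells, peaks of fibro-adipogenic genes summed to 11160, 9966 and 12474 against 14922, 13844 and 13566, with 9 of 18 peaks higher and 2 lower and Col1a1 most abundant. Myofibre genes summed to 6335, 5761 and 7500 against 6047, 5190 and 5334, with 5 of 13 peaks lower, none higher and Myh2 most abundant. Endothelial genes summed to 2840, 2643 and 3282 against 3613, 3578 and 3476, with 3 of 9 peaks higher and 1 lower and Tek most abundant, and had no peak at Tie1 or Emcn. Haematopoietic genes summed to 1043, 1149 and 1249 against 1381, 1236 and 1514, with 1 of 4 peaks higher and 1 lower and Spi1 most abundant, and had no peak at Ptprc, Itgam, Laptm5 or Cd3e. Ly6a, a fibro-adipogenic marker, also had none. Dcn is on both the fibro-adipogenic and the imprinted list, and Cdh15 and Calcr are on both the MuSC and the imprinted list. The part of other cells in the differences at imprinted genes was not tested.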

How the data were processed

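ATAC-seq libraries of freshly isolated MuSCs (3 control, 3 Taf4a sKO) were compared. The deposited score per peak is a read count that the authors normalized for depth and rounded. The submitters' processing notes name Trimmomatic 0.39, STAR 2.7.11b, Picard 3.1.1, featureCounts and DESeq, with mm10. The methods do not describe a shift of reads for Tn5. Depth factors, inferred from which integers never occur in a column, were 1.39, 1.00 and 1.23 in control and 1.39, 1.37 and 1.29 in Taf4a sKO libraries. These are not counts, so limma 3.58.1 (R 4.3.3; trend and robust moderation) was run on log2(value + 1) over the 75384 peaks with a mean above 10, or on values summed per gene, with Benjamini-Hochberg adjustment. On simulated data with 200 peaks changed by 1 on the log2 scale, 179 were called, with 11 false calls among 75286 peaks. The simulated counts had the same dispersion at every peak and no general shift between the genotypes. They therefore check the code and do not give the rate of false calls in the real data. Features came from GENCODE vM21, which holds 99.8% of the table's genes. Plagl1 has no entry of its own in the table, so its body was taken from GENCODE.

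The members and lists were chosen with earlier results of these data known. The text names all members, the peak nearest each gene start and every called peak, and of the other imprinted genes the 5 largest rises and falls. Alternatives covered scaling, pseudocount, filter, thresholds, annotation, a replicate block and each library left out. Replicates are biological per the study; with 3 per genotype the precision is limited. Per-kb levels are values divided by peak length.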

Additional observations from a re-analysis of the deposited data

How the results depend on the processing

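Of the 15 member peaks called (11 by the rule and 4 under other identifiers), 6 kept their call under all 13 alternative settings and none reversed: the distal Mest peak, the Plagl1 start-site peak, the Dlk1 peak 6.6 kb upstream and the Grb10 peaks at 72.7, 76.2 and 89.7 kb. The 27 peaks gave 7 rises and 4 falls. Rises numbered 3 with quantile normalization, 0 by the authors' fold threshold and 3 when only peaks with a gene symbol were used, and falls 1 by that threshold, 2 with a symbol only and 7 with the peaks of other identifiers included. Leaving out each library in turn gave 2 to 9 rises and 3 or 4 falls. Of the peaks nearest the 9 gene starts, 2 rose (0 with quantile normalization, 0 to 3 without single libraries) and 1 fell (2 among the peaks that cover an annotated start). Of the summed genes 2 rose, and 1 rose under TMM, median-of-ratios or quantile scaling and with symbols only, while leaving out libraries gave 0 to 5. Of the other imprinted genes' peaks 26 rose (3 by the fold threshold, 17 to 46 without single libraries). Falls numbered 6 (14 with TMM factors, median-of-ratios factors or quantile normalization, and 1 by the fold threshold with 1 added to each group mean). Without that addition the Calcr peak that fell, at 0.497 of its control mean, would also pass the fold threshold.

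Some small rises, none of them called in either form, changed sign under the 3 alternative scalings, each of which lowers the median of all peaks. In the order TMM factors, median-of-ratios factors, quantile normalization, the log2 change was -0.088, -0.089 and -0.069 at the Peg3 start peak, -0.086, -0.087 and -0.066 for the Peg3 sum, -0.0088, -0.010 and -0.078 at the Dlk1 start peak, -0.063, -0.064 and -0.082 for the Dlk1 sum, and -0.091, -0.092 and -0.14 at the upstream Grb10 start. It was -0.084, -0.085 and -0.072 at the Grb10 peak 77.6 kb in, -0.095, -0.096 and -0.18 at that 98.8 kb in and -0.0013, -0.0025 and -0.042 at that 105.9 kb in. With quantile normalization alone the Grb10 peak 65.3 kb in gave -0.088 and the Grb10 sum -0.061. Leaving out single libraries gave -0.067 to 0.13 for the Peg3 start peak and for the Peg3 sum, -0.30 to 0.18 for Ndn, -0.042 to 0.13 for the Dlk1 sum, -0.013 to 0.076 at the upstream Grb10 start, -0.10 to 0.17 at 77.6 kb and -0.085 to 0.15 at 98.8 kb.

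With the replicate number as a block, the rule's peaks gave 7 rises and 4 falls and the summed genes 2 and 1, while over all features 32948 peaks were called in place of 31578 and 6629 genes in place of 7050. Deviations of same-numbered libraries correlated at 0.11, -0.12 and -0.03, and those of differently numbered libraries at -0.12 to 0.15. The check gave no sign that the numbers pair the samples, but with 3 libraries per genotype it cannot exclude pairing. The edgeR and DESeq2 alternatives were not run, because the deposited values are rounded normalized values. Depth limits the weakest peaks, such as the intronic Peg3 peak with as few as 9 reads.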
